A study of Homo sapiens with 8 samples.

Results

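Messenger RNA was compared between cells labelled THP-1 and transduced with a DNMT3A mutant and cells of the same label transduced with wild-type DNMT3A, using 2 mutant and 2 wild-type mRNA libraries of the 8 libraries in the series. The other 4 libraries are ribosome footprints of the same 2 genotypes and serve here only to mark genes that footprints covered too thinly to be tested. THP-1 is a line grown from an acute monocytic leukaemia, and DNMT3A is an enzyme that sets new methyl groups on cytosines of CpG dinucleotides. The sample labels say only that the mutant cells carry a DNMT3A mutation, and the design text names it as R882H, a change in the catalytic domain that recurs in myeloid leukaemia. Both groups received a DNMT3A construct, so the controls also carry an introduced copy, whereas the sources used here give neither the vector nor its promoter, the clonality of the cells or the time after transduction. Of 20453 gene IDs in the files, 10756 passed a filter on low counts over the 4 mRNA libraries and were tested, and 1590 of these fell below the same filter in footprints.

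DNMT3A methylates CpG sites in promoters, gene bodies and the flanks of CpG islands. Promoter CpG methylation is known to go with silencing of germline genes, imprinted alleles and developmental regulators. The loss of methylation is also known to release transposable elements, which KRAB zinc finger proteins repress by recruiting TRIM28. Homeobox genes and the leukaemia stem cell programme are the classes most often tied to DNMT3A mutation in blood cells, and most of the families described here are known for housekeeping or signalling roles.

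Total counts per mRNA library lay between 3415999 and 4523475, so that a floor of 3 counts corresponds to 0.673 to 0.887 CPM (counts per 1000000 counts of the library, its size scaled by TMM factors). This floor covers counting error only. The SE values below come from the edgeR fit and also take in the spread of these 4 libraries. Whether the replicates were separate cultures is not stated, and they lay close together (biological coefficient of variation 2.1% over all genes). The p-values therefore reflect the spread of these 4 libraries alone, which may be technical. Gene counts do not separate the introduced DNMT3A from the cell's own copy. For DNMT3A itself the wild-type libraries held 291 and 294 CPM and the mutant libraries 241 and 244 CPM, with no overlap, so that it fell by 0.27 ± 0.05 (SE) on the log2 scale (edgeR adjusted p = 4.3e-06). The cell type on the labels was set against marker genes. Of 22 monocyte and macrophage markers, 6 reached a mean of 10 CPM and 6 had no count in any mRNA library, among them S100A8, S100A9 and CSF1R, whereas 17 of 19 erythroid and megakaryocyte markers reached that level. The libraries thus do not show the marker pattern that the label would give, and the cells are called by their label only. The summed erythroid markers came to 3870 and 3927 CPM with wild-type and 3343 and 3385 CPM with mutant DNMT3A, and 9 of 17 tested were lower. That is 52.9% of them, where 18.9% of all tested genes were lower. Allowing for how many genes lie nearby (the density-adjusted fit, defined below) gave 2 higher and 6 lower of these 17. The median log2 difference of these erythroid markers was -0.157 as measured and -0.058 in that fit. Summed keratins and other epithelial markers came to 1166 and 1203 CPM against 917 and 913 CPM, with 3 of 4 tested lower, while monocyte markers overlapped between the groups (542 and 549 CPM against 522 and 568 CPM). Their part in the results below was not tested, and in bulk libraries fewer cells of a type and less RNA per cell cannot be told apart.

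Across all genes the changes were many and small, with as many in one direction as in the other. Calls were made by edgeR's quasi-likelihood test where the adjusted p (Benjamini-Hochberg, over all 10756 genes) lay under 0.05, and positive log2 differences mean higher in the mutant. By that rule 2030 genes were higher (18.9%) and 2030 were lower (18.9%), against which the counts of each family below should be read. In 7297 of the 10756 genes, called or not, the libraries of the 2 groups did not overlap. The median fold of called genes was 1.28, while 525 calls reached 1.5-fold (331 higher, 194 lower) and 74 reached 2-fold, 53 of them below the footprint filter. Without wild-type library 2, 1125 genes were called higher and 1168 lower, and without mutant library 1 the counts were 1300 and 1369. With an assumed variation of 10% between cultures in place of the estimated spread, 178 genes stayed higher (1.65%) and 135 lower (1.26%).

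The direction of change followed local gene density, which touches every family described here. The number of other protein-coding genes within 500 kb correlated with the log2 difference at -0.38 over 10616 genes, a description across genes that share chromosomes and are not independent replicates. In the sparsest quintile of genes 33.5% were higher and 5.46% lower, and in the densest quintile 3.67% were higher and 41.8% lower. The median difference went from 0.18 in the sparsest to -0.21 in the densest quintile. Between the 2 mutant libraries the same correlation was -0.11, and between the 2 wild-type libraries it was -0.045. Gene span and promoter GC content also went with the direction of change. The shortest quintile of genes had a median of -0.18 with 33.6% lower. The quintile with the most GC in the promoter had a median of -0.10 with 27.1% lower, against 12.9% in that with the least. CpG observed over expected in promoters showed little trend, with medians between -0.02 and 0.03 over its quintiles. When a smooth trend with density was taken out before testing, 1390 genes were higher (12.9%) and 1445 lower (13.4%). With density taken out, promoter GC medians still ran from 0.059 in the quintile with the least GC to -0.09 in that with the most. As measured they were 0.079 and -0.097. Gene span medians with density taken out were -0.063 in the shortest quintile, 0.046 in the next to longest and 0.018 in the longest. Counts obtained with the density trend removed are called density-adjusted below, with the higher count first. They are not adjusted for GC content or gene span. What sets the density trend was not tested. A density-adjusted call refers to the same threshold in that fit.

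**Figure D1:**
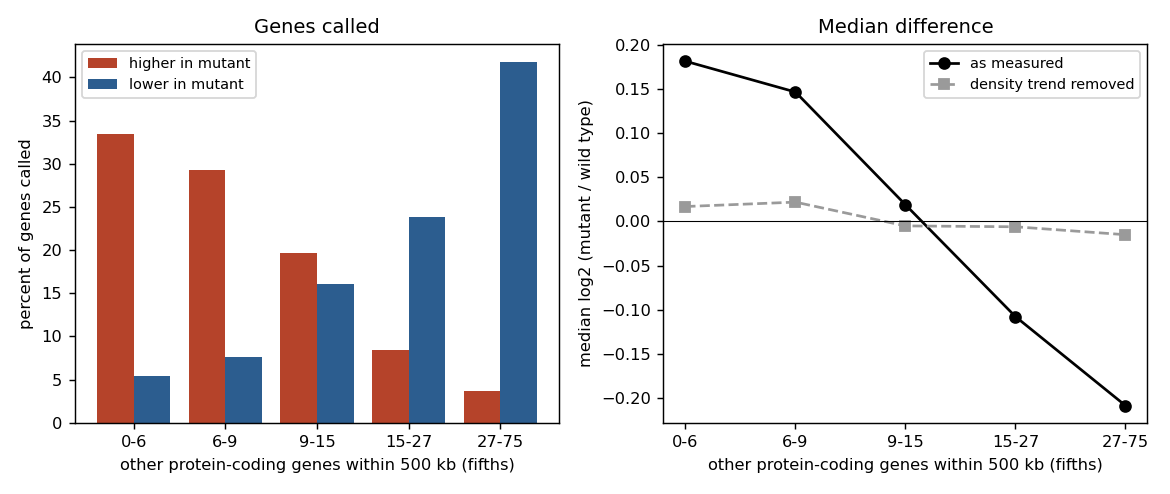
Left, percent of tested genes called higher (red) or lower (blue) in the mutant by quintile of local gene density (other protein-coding genes within 500 kb). Right, the median log2 difference in the same quintiles as measured (black) and with the density trend removed (grey). The share called higher drops from 33.5% to 3.67% and the share called lower climbs from 5.46% to 41.8% from the sparsest to the densest quintile.

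Of 94 families and pathways, 91 had at least 8 tested members. In 23 of them at least 2 times as many members were higher as lower, in 34 the reverse held, and 34 lay between. With the density trend removed, 18 of the 23 and 28 of the 34 kept that balance. Counts of members called (182 counts, higher and lower in 91 families) stayed within 1.5 times for 77 of the 182 without wild-type library 2 and for 104 without mutant library 1, and medians moved less than counts. Where leaving out a library moved a count by over 1.5 times, and the count was 3 or more in either fit, both counts of the family in that fit are given below, higher first. Counts of 1 or 2 were too small for that, and 12 of 32 reached 0 with some library left out. By shares of members called as measured, families of the centrosome, chromosome cohesion, coat proteins and ubiquitin removal lay at the higher end. Families of cell-surface signalling, membrane carriers and lipid synthesis lay at the lower end.

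**Figure D2:**
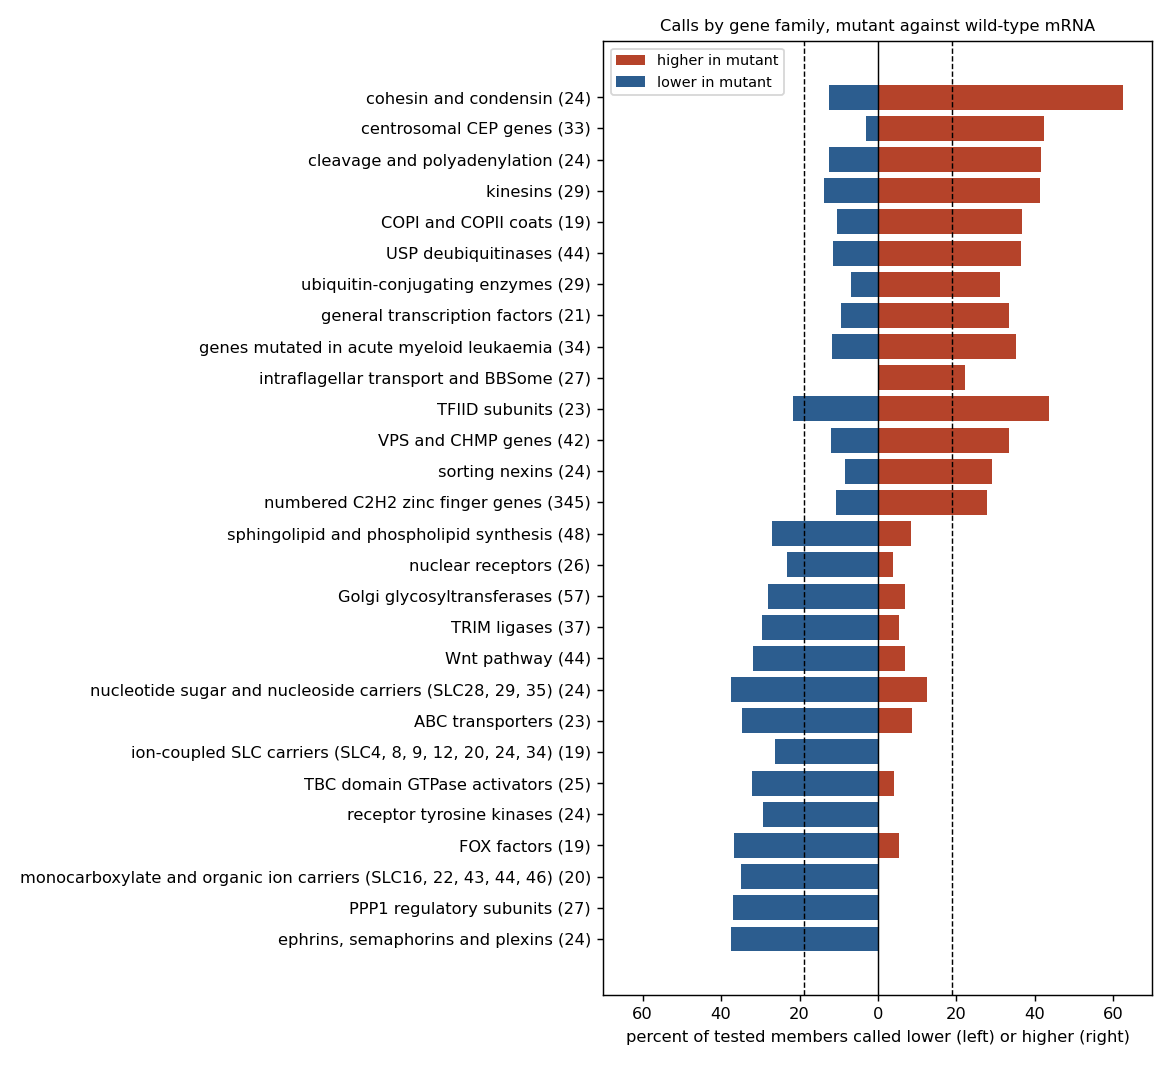
Percent of tested members called higher (red, right) or lower (blue, left) in mutant mRNA for the 14 families at each end of the difference between those shares, among families with at least 19 tested members (number in parentheses). Dashed lines mark the 18.9% called in each direction over all genes. Cohesin and condensin stand at the top with 62.5% higher, and no member of the ephrin, semaphorin and plexin families was higher.

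Zinc finger genes of the C2H2 type, the largest family of transcription factors, were more often higher than lower. Many of them carry a KRAB domain and bind transposable elements. Of 508 numbered members, 345 were tested, 96 were higher (27.8%), 37 were lower (10.7%) and 212 were not called, with a median of 0.23 against -0.002 over all genes. Density-adjusted counts were 87 higher and 25 lower with a median of 0.26. Without wild-type library 2 the counts were 51 higher and 22 lower, without mutant library 1 they were 53 and 20, and with an assumed variation of 10% they were 18 and 4. DESeq2 called 13 higher and 11 lower, but it gave some genes no adjusted p, and those counted as not called.

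The promoters of 6 of these genes are shown as examples of members that rose and fell, since promoter GC content is one of the properties that ran with the direction of change. Each line holds the 250 bases before the transcription start, 5′ to 3′ on the strand of the gene, from RefSeq on GRCh38.p14, with CG dinucleotides in capitals. The first pair had the smallest p among named members that rose, the second pair among those that fell, and the third pair among those that rose and lay below the footprint filter.
ZNF638: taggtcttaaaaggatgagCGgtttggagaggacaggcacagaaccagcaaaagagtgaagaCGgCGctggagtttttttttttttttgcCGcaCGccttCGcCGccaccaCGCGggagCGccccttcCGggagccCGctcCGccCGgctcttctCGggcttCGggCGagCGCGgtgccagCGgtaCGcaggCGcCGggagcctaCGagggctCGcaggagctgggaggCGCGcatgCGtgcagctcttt
ZNF595: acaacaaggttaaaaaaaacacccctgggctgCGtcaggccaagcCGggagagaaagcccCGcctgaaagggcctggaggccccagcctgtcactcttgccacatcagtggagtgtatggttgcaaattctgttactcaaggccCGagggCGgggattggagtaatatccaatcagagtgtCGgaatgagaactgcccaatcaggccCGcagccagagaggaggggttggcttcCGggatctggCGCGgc
ZNF598: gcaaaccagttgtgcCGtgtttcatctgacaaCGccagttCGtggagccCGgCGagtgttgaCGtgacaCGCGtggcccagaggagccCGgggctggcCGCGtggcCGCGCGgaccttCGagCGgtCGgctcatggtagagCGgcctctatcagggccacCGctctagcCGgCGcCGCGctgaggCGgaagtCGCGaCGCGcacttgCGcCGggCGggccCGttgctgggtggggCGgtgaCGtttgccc
ZNF865: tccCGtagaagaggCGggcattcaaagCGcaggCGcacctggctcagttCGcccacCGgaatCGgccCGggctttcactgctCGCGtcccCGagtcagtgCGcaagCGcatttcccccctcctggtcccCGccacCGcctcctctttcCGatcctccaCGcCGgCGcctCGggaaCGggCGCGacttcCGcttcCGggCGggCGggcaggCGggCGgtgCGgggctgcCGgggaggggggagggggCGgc
ZNF320: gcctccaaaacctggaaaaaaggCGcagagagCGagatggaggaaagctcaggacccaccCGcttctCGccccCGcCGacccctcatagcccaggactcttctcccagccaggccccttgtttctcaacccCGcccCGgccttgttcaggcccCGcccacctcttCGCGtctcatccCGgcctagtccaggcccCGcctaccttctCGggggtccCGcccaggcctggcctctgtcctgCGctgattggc
ZNF84: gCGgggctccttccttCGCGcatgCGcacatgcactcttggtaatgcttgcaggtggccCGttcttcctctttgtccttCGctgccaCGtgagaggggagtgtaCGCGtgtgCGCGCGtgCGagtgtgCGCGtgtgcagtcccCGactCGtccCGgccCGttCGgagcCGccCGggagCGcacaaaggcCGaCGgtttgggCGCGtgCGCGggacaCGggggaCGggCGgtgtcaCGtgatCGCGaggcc

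CG dinucleotides numbered 28 in the promoter of ZNF638 (chr2:71331532-71331781, + strand) and 10 in that of ZNF595 (chr4:53071-53320, + strand). There were 34 in that of ZNF598 (chr16:2009822-2010071, - strand) and 32 in that of ZNF865 (chr19:55605397-55605646, + strand). The promoters of ZNF320 (chr19:52897695-52897944, - strand) and ZNF84 (chr12:133037259-133037508, + strand) held 16 and 35. The searched motif is CG, which reads the same on both strands. Over all promoters of tested genes in the RefSeq table (8847) the median was 22 CG in 250 bases, with quartiles of 15 and 28. It was 15 for 85 zinc finger genes called higher, 24.5 for 34 called lower and 18.5 for 184 not called. GC content had medians of 60.4%, 69.0% and 61.6% in those groups and 65.2% over all. Of the printed promoters, that of ZNF84, which rose, held more CG than those of both members that fell, and that of ZNF595, which also rose, held the fewest.

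ZNF638, which brings the HUSH silencing complex to retroviral DNA, had 103 and 106 CPM under wild-type and 154 and 146 CPM under mutant DNMT3A. Its groups did not overlap, and it rose by 0.52 ± 0.07 (SE) on the log2 scale (edgeR adjusted p = 1.9e-11). ZNF595 went from 103 and 101 to 139 and 149 CPM and ZNF644, a partner of the G9a histone methyltransferase, from 70.4 and 72.9 to 105 and 102 CPM. ZNF146 rose from 54.1 and 45.5 to 74.7 and 73.7 CPM, by 0.59 ± 0.10 on the log2 scale. On the falling side, ZNF598, a ubiquitin ligase that senses collided ribosomes, went from 218 and 207 to 148 and 169.6 CPM, a difference of -0.42 (edgeR adjusted p = 2e-10). ZNF467 fell most among the named members, from 38.1 and 43.7 to 19.8 and 29.3 CPM, and ZNF316 fell from 103 and 97.1 to 70.2 and 68.3 CPM. ZNF598 and ZNF467 each had a mutant library 2 above mutant library 1, but neither overlapped the wild-type libraries.

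Position split the family. On chromosome 19, where most human KRAB zinc finger genes lie in tandem clusters, 48 of 148 members were higher and 13 lower, with a median of 0.36. The other 681 tested genes of that chromosome ran the opposite way, with 12 higher and 345 lower and a median of -0.26. Density-adjusted, the zinc finger genes of chromosome 19 counted 53 higher and 5 lower and the other genes 37 and 127. Between 51571283 and 53496255 of chromosome 19 (GRCh38.p14), 12 of 25 members were higher and none lower (15 and 0 density-adjusted). Between 36214723 and 37779586, 6 of 11 were higher and none lower (6 and 0 density-adjusted). Between 19668153 and 22091480, 6 of 15 were higher and none lower (5 and 0 density-adjusted). Other clusters also held members that were lower. From 7069703 to 9786160, 5 of 13 were higher and 2 lower (5 and 1 density-adjusted). From 11483429 to 12633834, 5 of 14 were higher and 1 lower (8 and 0 density-adjusted). From 43596392 to 45076478, 2 of 11 were higher and 1 lower (2 and 0 density-adjusted). The cluster near the end of the long arm, between 55476617 and 58489533, differed in its counts, with 4 of 38 higher and 8 lower. Density-adjusted, its balance turned round to 6 higher and 4 lower. On chromosome 16, 1 of 25 members was higher and 9 were lower, but 2 and 3 density-adjusted. The median there was -0.295 as measured and -0.095 density-adjusted. No test of these counts was made, and near-identical copies within a cluster may share reads in a way that gene counts do not resolve.

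**Figure D3:**
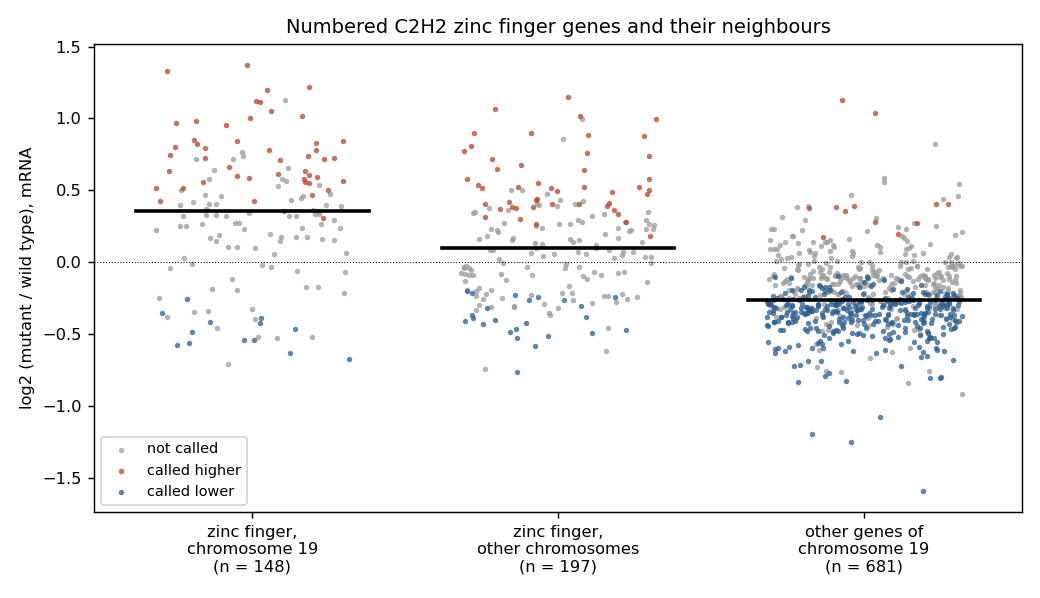
Log2 difference between mutant and wild-type mRNA for each tested numbered C2H2 zinc finger gene on chromosome 19 (n = 148) and elsewhere (n = 197) and for the other tested genes of chromosome 19 (n = 681). Points are genes, coloured by call, and black bars are medians, at 0.36, 0.10 and -0.26.

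Related zinc finger families gave even or near-empty counts. ZBTB genes, which pair zinc fingers with a BTB domain, had 5 higher and 5 lower of 36 (4 and 3 density-adjusted). ZBTB41 rose from 21.6 and 22.4 to 38.2 and 37.5 CPM (edgeR adjusted p = 5e-07) and ZBTB33, which encodes the methyl-CpG binder Kaiso, from 49.1 and 49.5 to 66.4 and 61.7 CPM. ZBTB7A, a repressor of fetal globin, fell from 89.6 and 98.2 to 62.8 and 70.9 CPM. The ZBTB median was -0.006, and -0.032 density-adjusted. Among 19 ZSCAN and ZKSCAN genes 1 was higher, ZSCAN9, and none was lower (2 and 0 density-adjusted). Their median was 0.058 as measured but 0.23 density-adjusted, near the 0.26 of the numbered genes, so few calls here do not mean the absence of a shift. Counts without wild-type library 2 were 4 and 3 for ZBTB genes. With mutant library 1 left out they were 2 and 3 for ZBTB genes. The fit without wild-type library 1 gave 3 and 6 for ZBTB genes.

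Silencing factors for transposable elements moved both ways, with 8 higher and 6 lower of 24 (6 and 4 density-adjusted). TASOR, the scaffold of the HUSH complex, rose from 135 and 126 to 184 and 180.5 CPM (edgeR adjusted p = 5.7e-12), and LRIF1, which binds the heterochromatin protein HP1, rose from 86.3 and 84.3 to 117 and 122 CPM. TRIM28, the corepressor that KRAB zinc finger proteins recruit, was lower in both mutant libraries, at 589.6 and 606 CPM against 698 and 708 CPM, and fell by 0.24 on the log2 scale (edgeR adjusted p = 2.6e-07). DAXX, a chaperone of histone H3.3, fell from 197 and 209 to 163 and 160.1 CPM, but was not called once the density trend was removed. The H3K9 methyltransferase gene EHMT1 fell from 142 and 128 to 108 and 112 CPM. TRIM ligases as a family, of which TRIM28 is one, had 2 higher and 11 lower of 37 (3 and 9 density-adjusted), with TRIM35 at 28.4 and 35.6 CPM against 18.7 and 17.1 CPM. Leaving out wild-type library 2 gave 5 and 4 for silencing factors and 0 and 7 for TRIM ligases. When mutant library 1 was left out, the counts were 1 and 7 for TRIM ligases. Dropping wild-type library 1 gave 1 and 6 for TRIM ligases.

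Cohesin and condensin genes had the highest share of members called higher among the 91 families. These rings hold sister chromatids together, shape chromatin loops and compact chromosomes in mitosis. Of 24 tested, 15 were higher (62.5%), 3 were lower (12.5%) and 6 were not called, with a median of 0.34. Density-adjusted counts were 15 and 1, and leaving out each library in turn gave 11 (without wild-type library 2) to 16 higher and 1 to 3 lower. STAG2, a cohesin subunit that is itself mutated in myeloid leukaemia, had 186 and 180.3 CPM with wild-type and 284 and 259.6 CPM with mutant DNMT3A, with no overlap, and rose by 0.58 ± 0.06 on the log2 scale (edgeR adjusted p = 1.6e-21). RAD21, the kleisin of the ring, rose from 201 and 185 to 255 and 260.4 CPM. SMC4, the ATPase of condensin, rose from 143 and 146 to 199.5 and 196 CPM, and SMC6, of the related repair complex, from 83.97 and 81.4 to 124 and 118 CPM. The 3 genes that fell were MAU2, the partner of the cohesin loader NIPBL (67.4 and 74.7 against 49.9 and 54.1 CPM), NCAPH2, a condensin subunit (88.4 and 85.6 against 68.4 and 79.3 CPM), and CDCA5, which encodes the cohesin stabiliser sororin (84.3 and 86.5 against 68.2 and 77.3 CPM). Of these 3, MAU2 alone was still called with the density trend removed. The call was lost with 1 library left out for NCAPH2 (without wild-type library 1, wild-type library 2 or mutant library 1, log2 difference -0.26 to -0.13) and CDCA5 (without wild-type library 1, wild-type library 2 or mutant library 1, log2 difference -0.26 to -0.15).

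Centrosomal CEP genes, which build centrioles and the base of cilia, were called higher more often than lower, although most were not called. Of 33 tested, 14 were higher (42.4%), 1 was lower and 18 were not called, with a median of 0.26. Density-adjusted counts were 9 and 0 with a median of 0.16, and 9 were called with both the main and the adjusted fit. CEP152, the scaffold on which new centrioles start, had 49.4 and 49.8 CPM against 91.3 and 68.8 CPM (log2 difference 0.70 ± 0.10, edgeR adjusted p = 1.7e-11). Its mutant libraries differed from each other by more than its wild-type libraries did, and both lay above them. CEP70 rose from 20.99 and 24.4 to 51.3 and 37.5 CPM, CEP192, which recruits the pericentriolar material, from 213 and 214 to 263 and 268 CPM, and CEP120 from 39.03 and 39.9 to 61.2 and 59.9 CPM. CEP170B, a relative of the microtubule binder CEP170, was the single member lower, at 47.3 and 50.4 CPM against 39.1 and 38.2 CPM, and was not called density-adjusted. Intraflagellar transport and BBSome genes, the cargo system of cilia, had 6 higher and 0 lower of 27, a share near the 18.9% of all genes, but a median of 0.29 (4 and 0 density-adjusted, median 0.27). IFT25 rose from 77.2 and 67.9 to 100.1 and 88.99 CPM and TTC21B from 42.6 and 45.3 to 64.1 and 55.3 CPM. Omitting wild-type library 2 gave 8 and 0 for CEP genes. Once mutant library 1 was omitted, the counts were 3 and 0 for intraflagellar transport. No call was made with 1 library left out for CEP170B (without wild-type library 2, log2 difference -0.29).

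Kinesins, the motors that walk along microtubules, had 12 higher and 4 lower of 29, and 7 and 1 density-adjusted. KIF20B, needed late in cell division, rose from 76.9 and 67.04 to 109 and 109 CPM (edgeR adjusted p = 7.1e-12), and KIF14, a cytokinesis motor, from 81.9 and 81.4 to 127 and 108 CPM. KIF2A, which takes microtubules apart, rose from 155 and 158 to 208 and 217 CPM. The neuronal motor gene KIF1A fell from 176 and 188 to 138 and 143 CPM and stayed lower density-adjusted. Dyneins and dynactins had 4 higher and 1 lower of 21 (4 and 1 density-adjusted), the lower one being DYNC1H1, the heavy chain of cytoplasmic dynein, at 558 and 556 CPM against 478 and 488 CPM. CENPE, the kinetochore kinesin, stood among the 10 largest rises of all genes with at least 50 CPM, at 86.6 and 91.2 CPM against 158 and 136 CPM. Counts without wild-type library 2 were 8 and 2 for kinesins and 1 and 1 for dyneins and dynactins. With mutant library 1 left out they were 6 and 3 for kinesins.

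**Figure D4:**
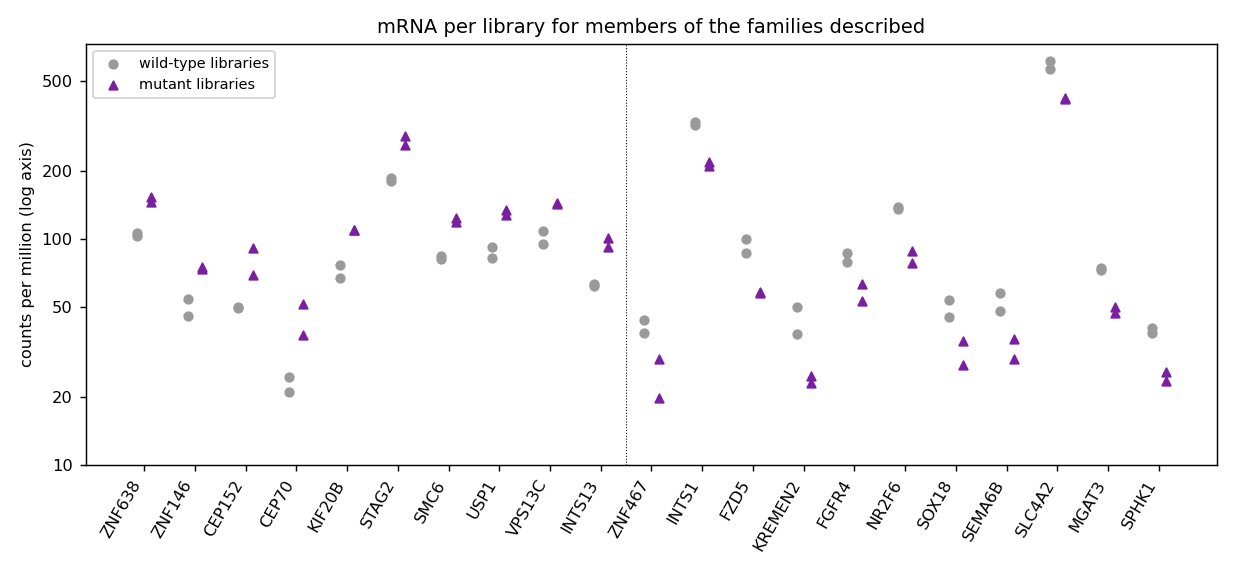
CPM (log axis) in each of the 2 wild-type (grey circles) and 2 mutant (purple triangles) mRNA libraries for members of the families described, risen genes left of the dotted line and fallen genes right of it. In each gene shown the libraries of the 2 groups do not overlap, which also holds for 7297 of all 10756 tested genes.

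Chromatin regulators outside cohesin were split within their own complexes. Polycomb genes, which place and read repressive histone marks, had 6 higher and 6 lower of 31 (3 and 6 density-adjusted). The core of the complex PRC2 was on the higher side, with SUZ12 at 75.1 and 73.3 CPM against 100.5 and 98.9 CPM (edgeR adjusted p = 4e-06), its catalytic subunit EZH2 at 145 and 140.3 against 176 and 165 CPM and EED at 37.5 and 31.2 against 50.8 and 38.8 CPM. BAP1, which removes ubiquitin from histone H2A, fell from 127 and 132 to 96.7 and 111 CPM, and CBX2, a reader in PRC1, from 37.8 and 47.8 to 34.9 and 31.9 CPM. SUZ12, EZH2 and CBX2 kept their calls density-adjusted, while EED and BAP1 did not. CHD, ISWI and NuRD remodellers had 10 higher and 6 lower of 31 (8 and 3 density-adjusted), where the helicase gene CHD9 rose from 105 and 97.3 to 138 and 137 CPM and the NuRD subunit gene GATAD2A fell from 304 and 310.3 to 234 and 244 CPM. Histone acetyltransferases and deacetylases had 4 higher and 9 lower of 36 (5 and 6 density-adjusted): HDAC2 rose from 114 and 119.5 to 169.8 and 142 CPM. SWI/SNF genes had 3 higher and 2 lower of 26 (4 and 2 density-adjusted). The fit without wild-type library 2 gave 4 and 1 for polycomb genes, 6 and 5 for remodellers and 2 and 6 for acetyltransferases and deacetylases. Leaving out mutant library 1 gave 3 and 3 for polycomb genes and 2 and 8 for acetyltransferases and deacetylases. When wild-type library 1 was left out, the counts were 9 and 3 for remodellers. A fit without 1 library ended the call of EED (without wild-type library 2 or mutant library 1, log2 difference 0.19 to 0.27) and CBX2 (without wild-type library 2 or mutant library 2, log2 difference -0.31 to -0.17).

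The general machinery of transcription was likewise called in both directions within complexes. TAF genes, of which most encode subunits of TFIID and some the RNA polymerase I factor, had 10 higher and 5 lower of 23, but 7 and 0 density-adjusted. TAF1, the largest TFIID subunit, rose from 76.3 and 81.4 to 110.2 and 95.4 CPM (edgeR adjusted p = 2.9e-05) and TAF9 from 114 and 106 to 134 and 141 CPM, while TAF6, its histone-fold partner, fell from 184 and 189.7 to 143 and 151 CPM and was not called density-adjusted. General transcription factors had 7 higher and 2 lower of 21 (4 and 1 density-adjusted). GTF2H1 of TFIIH rose from 78.9 and 81.2 to 106 and 103 CPM, and GTF3C1, the largest subunit of the RNA polymerase III factor TFIIIC, fell from 128 and 135 to 102 and 96.4 CPM. RNA polymerase subunits themselves had 1 higher and 4 lower of 31, but the balance turned round to 3 and 1 density-adjusted. POLR2B was at 193 and 182 against 236 and 218 CPM and POLR2A, the catalytic subunit, was at 256 and 256 against 214 and 216 CPM (no density-adjusted call, where its log2 difference was 0.03). Of the Integrator complex, which cuts short nascent transcripts, 2 members were higher and 3 lower of 15 (2 and 2 density-adjusted). INTS13 rose from 63.3 and 61.6 to 100.5 and 92.05 CPM (edgeR adjusted p = 3.3e-11) and INTS1, the scaffold, fell from 319 and 327 to 210.5 and 218 CPM (edgeR adjusted p = 1.3e-25). Both were called density-adjusted and with an assumed variation of 10%, but with the 2 settings combined INTS13 was not (log2 difference 0.49). Mediator, the bridge between activators and polymerase, had 4 higher and 7 lower of 31 (1 and 2 density-adjusted), where MED13 of the kinase module rose from 265 and 278 to 327 and 311 CPM (no density-adjusted call) and the tail subunit gene MED16 fell from 173 and 176 to 121 and 136 CPM. Dropping wild-type library 2 gave 6 and 1 for TAF genes, 2 and 1 for general factors and 1 and 4 for Mediator. Omitting mutant library 1 gave 6 and 2 for TAF genes, 3 and 3 for general factors and 1 and 4 for Mediator. Once wild-type library 1 was omitted, the counts were 9 and 3 for TAF genes, 4 and 3 for general factors and 2 and 3 for Mediator. Counts without mutant library 2 were 2 and 5 for Mediator.

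RNA processing and decay genes were called in both directions. Cleavage and polyadenylation genes had 10 higher and 3 lower of 24, but 4 and 4 density-adjusted. Among them the poly(A) polymerase gene PAPOLG rose from 22.2 and 23.5 to 39.4 and 35.4 CPM (edgeR adjusted p = 4.8e-06), and CPSF1, the scaffold of the cleavage factor CPSF, fell from 341 and 343 to 255 and 271 CPM. The 46 genes of CCR4-NOT, decapping and nonsense-mediated decay held 14 higher and 11 lower (6 and 5 density-adjusted). The decapping enzyme gene DCP2 rose from 153 and 168 to 200.4 and 212 CPM, ZFP36L2, which steers AU-rich mRNA to decay, fell from 325 and 356 to 231 and 267 CPM, and UPF1, the helicase of nonsense-mediated decay, fell from 203 and 186 to 157 and 144 CPM. tRNA modification genes had 16 higher and 13 lower of 65, with 7 and 5 density-adjusted. TPRKB, of the KEOPS complex, rose from 23.1 and 26.5 to 47.01 and 41.05 CPM (edgeR adjusted p = 9.8e-09) and WDR4, the partner of a tRNA guanine methyltransferase, fell from 110.3 and 99.99 to 73.1 and 83.1 CPM. Genes of m6A methylation had 4 higher and 4 lower of 21 (1 and 2 density-adjusted). The microRNA pathway had 4 higher and 3 lower of 19 (2 and 3 density-adjusted). In both families the shares lay near the 18.9% over all genes in each direction. In the microRNA pathway, AGO2, the slicing Argonaute, fell from 211 and 210.5 to 166 and 181 CPM, and TUT4, which adds uridines to microRNA precursors, rose from 108 and 99.99 to 128 and 129.8 CPM. With wild-type library 2 left out the counts were 5 and 3 for cleavage genes, 11 and 5 for decay genes, 9 and 6 for tRNA modification, 1 and 2 for m6A genes and 2 and 2 for the microRNA pathway. The fit without mutant library 1 gave 9 and 7 for decay genes, 11 and 7 for tRNA modification and 3 and 2 for m6A genes. Leaving out wild-type library 1 gave 6 and 2 for cleavage genes and 6 and 9 for decay genes.

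As measured, membrane traffic families were called higher more often than lower, but RAB GTPases were not once density-adjusted. The TBC GTPase activators were called lower more often in both fits. VPS and CHMP genes, which sort cargo to endosomes and lysosomes, had 14 higher and 5 lower of 42, with 11 and 4 density-adjusted. The lipid transfer protein gene VPS13C rose from 94.6 and 108 to 144 and 143 CPM (edgeR adjusted p = 5.5e-10) and VPS54, of a tether at the Golgi, from 35.2 and 42.1 to 60.3 and 57.9 CPM. VPS51, which shares that tether, fell from 257 and 246 to 199 and 206 CPM, but was not called density-adjusted. COPI and COPII coats, which carry vesicles between the endoplasmic reticulum and the Golgi, had 7 higher and 2 lower of 19, and 4 and 0 density-adjusted. COPG2 rose from 79.2 and 72.2 to 114 and 91.3 CPM, whereas its paralog COPG1 fell from 164 and 181 to 153 and 152 CPM, the latter without a density-adjusted call. RAB GTPases had 6 higher (15.4%, under the 18.9% over all genes) and 1 lower of 39, but 1 and 2 density-adjusted. RAB1A rose from 78.6 and 69.3 to 94.7 and 88.2 CPM and RAB1B fell from 163 and 161 to 128 and 134 CPM. Neither was called density-adjusted. The GTPase activators of the TBC family, which switch RAB proteins off, had 1 higher and 8 lower of 25 (0 and 9 density-adjusted). TBC1D17 fell from 41.1 and 39.01 to 26.99 and 27.8 CPM and TBC1D25 from 27.5 and 29.6 to 17.3 and 20.1 CPM. When wild-type library 2 was left out, the counts were 8 and 5 for VPS and CHMP genes, 4 and 1 for coats, 3 and 1 for RAB GTPases and 0 and 4 for TBC genes. Dropping mutant library 1 gave 3 and 2 for coats and 3 and 1 for RAB GTPases. Omitting wild-type library 1 gave 4 and 2 for coats. Once mutant library 2 was omitted, the counts were 6 and 3 for RAB GTPases and 3 and 6 for TBC genes. The call was lost with 1 library left out for COPG1 (without wild-type library 2, log2 difference -0.10) and RAB1A (without wild-type library 2, log2 difference 0.22).

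Enzymes that add or remove ubiquitin gave different counts by class. USP deubiquitinases had 16 higher and 5 lower of 44, with 8 and 5 density-adjusted. Their median was only 0.045 as measured and 0.005 density-adjusted, so the family as a whole was little shifted. USP1, which acts in DNA crosslink repair, rose from 91.7 and 82.5 to 134 and 128 CPM (edgeR adjusted p = 3e-13) and USP15 from 160.2 and 161 to 229.7 and 212 CPM, while USP36, a nucleolar member, fell from 87.2 and 84.5 to 69.3 and 66.3 CPM. Ubiquitin-conjugating enzymes had 9 higher and 2 lower of 29, and 6 and 0 density-adjusted. UBE2K rose from 72.7 and 71.5 to 97.8 and 96.1 CPM, and UBE2S, which extends chains for the anaphase-promoting complex, fell from 224 and 247 to 169.6 and 199.7 CPM without a density-adjusted call. The substrate-facing families were closer to balance, with 9 higher and 10 lower of 58 RNF ligases (6 and 8 density-adjusted) and 8 higher and 12 lower of 49 F-box genes (5 and 8 density-adjusted). FBXL13 rose from 34.9 and 39.01 to 60.1 and 64 CPM and FBXW5 fell from 214 and 217 to 155 and 168 CPM. Counts without wild-type library 2 were 8 and 2 for USP genes, 5 and 2 for conjugating enzymes, 7 and 5 for RNF ligases and 4 and 9 for F-box genes. With mutant library 1 left out they were 11 and 3 for USP genes, 3 and 2 for conjugating enzymes and 4 and 9 for RNF ligases. The fit without wild-type library 1 gave 13 and 3 for USP genes, 5 and 2 for conjugating enzymes and 5 and 7 for RNF ligases.

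Transcription factors of development were called lower more often than higher. HOX genes, which set body axes and are active in many leukaemias, had 0 higher and 3 lower of 11 tested among 39, with a median of -0.36. Those lower were HOXB9 at 159 and 165 CPM against 128 and 132 CPM, HOXB2 at 93.4 and 84.3 against 67.5 and 68.3 CPM and HOXB7 at 18.6 and 13.7 against 8.997 and 10.4 CPM, and all 3 were also lower density-adjusted. FOX factors had 1 higher and 7 lower of 19, and 0 and 7 density-adjusted. FOXK2 fell from 258 and 267 to 193 and 208 CPM (edgeR adjusted p = 1.2e-10), FOXO4 from 54.1 and 54.7 to 39.8 and 37.2 CPM and FOXO3, a factor of stress resistance, from 35.8 and 41.9 to 27.2 and 29.3 CPM. Nuclear receptors had 1 higher and 6 lower of 26 (0 and 6 density-adjusted). NR2F6 fell from 136 and 139 to 78.5 and 88.5 CPM, a difference of -0.72 ± 0.08 (edgeR adjusted p = 4e-19), its relative NR2F2 from 137 and 139 to 101 and 107 CPM, and the clock repressor gene NR1D1 from 19.2 and 20.2 to 10.3 and 10.96 CPM. Of only 5 SOX genes tested, SOX18 (45.2 and 53.6 against 27.7 and 35.2 CPM), SOX12 (44.4 and 50.7 against 32.6 and 31.6 CPM) and SOX4 were lower, and all 3 density-adjusted as well. KLF and SP factors had 3 higher and 5 lower of 20 (1 and 7 density-adjusted). Of the 3 higher, SP100 was taken in by its symbol and is not itself such a factor. It also counts among the interferon-stimulated genes. Among those lower was KLF1, the erythroid master factor, at 300.1 and 312 CPM against 196 and 242 CPM, which moved with the erythroid markers given above. Leaving out wild-type library 2 gave 1 and 3 for FOX factors. When mutant library 1 was left out, the counts were 0 and 4 for FOX factors and 1 and 3 for KLF and SP factors. Dropping wild-type library 1 gave 0 and 4 for KLF and SP factors. No call was made with 1 library left out for HOXB7 (without wild-type library 1 or mutant library 1, log2 difference -0.60 to -0.50) and FOXO3 (without wild-type library 2, log2 difference -0.34).

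Wnt pathway genes were lower more often than higher, from receptors down to corepressors. Of 44 tested, 3 were higher (6.82%), 14 were lower (31.8%) and 27 were not called, with a median of -0.17. Density-adjusted counts were 1 and 12. The receptor gene FZD5 held 86.9 and 99.3 CPM in wild-type and 57.8 and 58.4 CPM in mutant libraries, with no overlap, and fell by 0.69 ± 0.09 on the log2 scale (edgeR adjusted p = 7.7e-13). KREMEN2, a receptor that removes LRP coreceptors from the surface, fell from 49.97 and 38.1 to 24.7 and 22.9 CPM, and the coreceptor LRP5 from 356 and 346 to 279.6 and 305 CPM. Downstream, the corepressor gene CTBP1 fell from 229.7 and 228 to 163 and 187 CPM. The 3 members that were higher were CTNNB1, which encodes beta-catenin (231 and 236 against 273 and 259 CPM), its degradation scaffold APC (145 and 124 against 161 and 151 CPM) and the kinase CSNK1A1 (188 and 205 against 226 and 220.3 CPM). Of these CSNK1A1 alone was called density-adjusted. Omitting wild-type library 2 gave 2 and 9 for the pathway. Once mutant library 1 was omitted, the counts were 0 and 11 for the pathway. A fit without 1 library ended the call of CTNNB1 (without wild-type library 1 or mutant library 1, log2 difference 0.15 to 0.18), APC (without wild-type library 2 or mutant library 1, log2 difference 0.11 to 0.18) and CSNK1A1 (without wild-type library 1 or mutant library 1, log2 difference 0.12 to 0.16).

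Receptor tyrosine kinases, the growth factor receptors, had 0 higher and 7 lower of 24, with a median of -0.27 (0 and 6 density-adjusted, median -0.26). FGFR4 fell from 79.2 and 86.3 to 53.1 and 62.98 CPM (edgeR adjusted p = 2.2e-07), FGFR3 from 94.3 and 99.99 to 70.4 and 73.95 CPM and ROR2, which also binds WNT5A, from 126 and 142 to 104 and 114 CPM. Ephrins, semaphorins and plexins, which guide cell contact and axons, had 0 higher and 9 lower of 24 and 0 and 5 density-adjusted. SEMA6B fell from 57.4 and 47.8 to 36.2 and 29.3 CPM (edgeR adjusted p = 4.5e-07) and EPHB6, a kinase-dead receptor, from 506 and 485 to 396 and 412 CPM. Notch and Hedgehog genes had 4 higher and 9 lower of 37, and 2 and 5 density-adjusted: the Notch ligand gene JAG2 fell from 132 and 136 to 91.8 and 102 CPM and HES6 from 90.5 and 89.5 to 67.9 and 69.9 CPM, while the sheddase gene ADAM10 rose from 62.4 and 62.8 to 88.6 and 79.05 CPM. TGF-beta and BMP genes had 3 higher and 9 lower of 34, and 0 and 7 density-adjusted. There the receptor gene TGFBR1 rose from 135 and 134 to 177 and 156 CPM, without a density-adjusted call, and the BMP targets ID1 and ID3 fell from 87.8 and 95.7 to 60.5 and 73.95 CPM and from 20.4 and 20.9 to 13.7 and 11.5 CPM. Inside the cell, PPP1 regulatory subunits, which direct protein phosphatase 1, had 0 higher and 10 lower of 27 and 0 and 6 density-adjusted, with PPP1R13L at 23.9 and 24.4 CPM against 13.3 and 14.5 CPM. The phosphatases of the DUSP and Sprouty families, feedback brakes on MAP kinase, had 3 higher and 6 lower of 23 (0 and 7 density-adjusted), with DUSP8 at 55.9 and 50 CPM against 32.2 and 32.1 CPM. Counts without wild-type library 2 were 0 and 3 for receptor tyrosine kinases, 0 and 5 for ephrins, semaphorins and plexins, 2 and 5 for Notch and Hedgehog genes, 1 and 4 for TGF-beta and BMP genes and 2 and 1 for DUSP and Sprouty genes. With mutant library 1 left out they were 2 and 6 for Notch and Hedgehog genes, 1 and 7 for TGF-beta and BMP genes and 0 and 3 for DUSP and Sprouty genes. The fit without wild-type library 1 gave 2 and 7 for Notch and Hedgehog genes and 0 and 4 for DUSP and Sprouty genes. The call was lost with 1 library left out for ROR2 (without wild-type library 2, log2 difference -0.21).

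Several groups of membrane carriers had more lower than higher calls. Ion-coupled SLC carriers had 0 higher and 5 lower of 19 (0 and 4 density-adjusted) and ABC transporters 2 and 8 of 23 (1 and 5 density-adjusted). Potassium channels had 0 and 3 of 19 (0 and 3 density-adjusted), and their 15.8% lower lay under the 18.9% over all genes. SLC4A2, a chloride-bicarbonate exchanger, fell from 564 and 612 to 418 and 416 CPM (edgeR adjusted p = 2.2e-26), and the potassium channel gene KCNH2, well expressed here, fell from 1064 and 1132 to 852 and 890.4 CPM. ABCA2 fell from 239 and 244 to 174 and 178 CPM, while ABCE1, a ribosome recycling factor that carries no cargo, rose from 143 and 139 to 194 and 187 CPM. The store-operated calcium channel gene ORAI1 fell from 65.04 and 67.5 to 45.2 and 42.1 CPM. Carriers of the families SLC16, SLC22, SLC43, SLC44 and SLC46 had 0 higher and 7 lower of 20, but 0 and 2 density-adjusted. Zinc and copper carriers were even, with 5 higher and 5 lower of 26 (19.2% each, and 4 and 2 density-adjusted). There the SLC30 exporter genes SLC30A9 (101 and 109.6 against 153 and 135 CPM) and SLC30A6 (47.9 and 42.6 against 67.5 and 66.3 CPM) rose, and SLC39A4, a zinc importer, fell from 119 and 116 to 86.2 and 82.1 CPM. Leaving out wild-type library 2 gave 0 and 1 for potassium channels, 1 and 3 for the SLC16 to SLC46 group and 3 and 3 for zinc and copper carriers. When mutant library 1 was left out, the counts were 0 and 4 for the SLC16 to SLC46 group and 2 and 5 for zinc and copper carriers. Dropping mutant library 2 gave 0 and 5 for potassium channels and 5 and 3 for zinc and copper carriers.

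Enzymes that build glycans and membrane lipids were lower on balance. Golgi glycosyltransferases had 4 higher and 16 lower of 57, and 3 and 12 density-adjusted. MGAT4B and MGAT3, which branch and bisect N-glycans, fell from 296 and 304 to 211 and 225 CPM (edgeR adjusted p = 1.3e-15) and from 72.7 and 74.2 to 46.8 and 49.98 CPM. FUT4, which makes the CD15 antigen of myeloid cells, fell from 62.97 and 60.5 to 35.5 and 49.2 CPM, with its mutant libraries further apart than its wild-type ones. GALNT1, which starts mucin-type O-glycans, rose from 67.7 and 70.2 to 96.3 and 88.2 CPM. Sphingolipid and phospholipid synthesis had 4 higher and 13 lower of 48, and 1 and 10 density-adjusted. SPHK1, the kinase that makes sphingosine 1-phosphate, fell from 38.4 and 40.1 to 25.6 and 23.5 CPM, CDIPT, which makes phosphatidylinositol, from 69.5 and 82.5 to 48.6 and 56.4 CPM and AGPAT1 from 326 and 348 to 255 and 266 CPM. FASN, the fatty acid synthase, was among the 10 largest falls of genes with at least 50 CPM, from 1981 and 2049 to 1221 and 1293 CPM (edgeR adjusted p = 7.2e-77). GPI anchor genes were even at 8 higher and 9 lower of 28 (4 and 4 density-adjusted). Acyl-CoA dehydrogenases and synthetases had 2 higher and 4 lower of 23 (2 and 2 density-adjusted), and ACADM, the medium-chain dehydrogenase of fatty acid oxidation, rose from 68.9 and 69.7 to 101 and 106 CPM. The mitochondrial folate enzyme gene ALDH1L2 rose from 26.3 and 25.6 to 60.3 and 48.96 CPM, by 1.08 ± 0.13 on the log2 scale (edgeR adjusted p = 2.3e-16). Omitting wild-type library 2 gave 0 and 7 for lipid synthesis, 1 and 5 for GPI anchor genes and 2 and 1 for acyl-CoA enzymes. Once mutant library 1 was omitted, the counts were 0 and 9 for lipid synthesis, 2 and 7 for GPI anchor genes and 2 and 1 for acyl-CoA enzymes. Counts without wild-type library 1 were 4 and 8 for GPI anchor genes and 2 and 1 for acyl-CoA enzymes.

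Gene classes known for control by DNA methylation showed no common direction. X-linked cancer-testis genes had 1 higher and 1 lower of 15 tested among 96 (1 and 0 density-adjusted), and imprinted genes 3 higher and 4 lower of 23, or 3 and 7 density-adjusted. UBE3A rose from 55.3 and 58.96 to 84.6 and 80.8 CPM, whereas DLK1, a Notch ligand relative, fell from 715 and 700.4 to 609 and 623 CPM and the growth restrainer CDKN1C from 33.4 and 39.9 to 25.9 and 29.1 CPM. Germline genes had 6 higher and 1 lower of 18, with 4 and 2 density-adjusted. The list also holds TEX10, among those higher, and TEX264, the 1 lower, which are not specific to germ cells. MEIOB, a meiotic recombination factor, rose from 62.97 and 68.2 to 99.7 and 81.3 CPM (edgeR adjusted p = 1.7e-06), the synaptonemal gene SYCP2 from 20.1 and 16.8 to 28.1 and 29.1 CPM and CTCFL, the testis relative of CTCF, from 261 and 251 to 305 and 295 CPM, the last without a density-adjusted call. Interferon-stimulated genes, which rise when cells sense double-stranded RNA of transposable elements, had 4 higher and 5 lower of 36 (5 and 2 density-adjusted). EIF2AK2, the RNA-sensing kinase PKR, rose from 29.6 and 30.3 to 42.5 and 36.97 CPM and ISG15 fell from 27.5 and 28.7 to 20.02 and 20.1 CPM (no density-adjusted call). HLA class I and antigen processing genes had 0 higher and 3 lower of 17, but 2 and 1 density-adjusted. With wild-type library 2 left out the counts were 3 and 0 for germline genes, 3 and 1 for imprinted genes and 1 and 1 for interferon-stimulated genes. The fit without mutant library 1 gave 3 and 2 for imprinted genes and 2 and 2 for interferon-stimulated genes. Leaving out wild-type library 1 gave 6 and 3 for interferon-stimulated genes and 0 and 1 for HLA class I genes. When mutant library 2 was left out, the counts were 4 and 3 for interferon-stimulated genes. No call was made with 1 library left out for CDKN1C (without wild-type library 2 or mutant library 1, log2 difference -0.35 to -0.28), SYCP2 (without wild-type library 2, log2 difference 0.51), EIF2AK2 (without wild-type library 2 or mutant library 1, log2 difference 0.30 to 0.44) and ISG15 (without wild-type library 2, log2 difference -0.45).

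Genes of blood and leukaemia biology differed in their counts by list. Genes mutated in acute myeloid leukaemia had 12 higher (35.3%) and 4 lower of 34, with 7 and 5 density-adjusted. The rises included the cohesin genes above, JAK2, the kinase of cytokine receptors, at 46.4 and 53.4 CPM against 72.7 and 76.2 CPM, and NRAS at 50.6 and 58.96 against 80.8 and 73.4 CPM. Falls included the splicing factor gene SRSF2 (327 and 323 against 241 and 253 CPM, edgeR adjusted p = 2.6e-12) and the blood transcription factors GATA2 (418 and 447 against 343 and 358 CPM) and RUNX1 (102 and 109 against 75.6 and 86.95 CPM), all 3 called density-adjusted as well. Of the leukaemia stem cell score, 9 of 17 genes were tested, none was higher and 4 were lower (0 and 3 density-adjusted). One of them was DNMT3B, the other active de novo methyltransferase, at 148 and 155 CPM against 126 and 135 CPM, and NYNRIN was at 11.2 and 14.6 against 8.10 and 8.16 CPM (no density-adjusted call). Among 20 MEIS, PBX and other HOX partners, 1 was higher and 4 were lower (1 and 2 density-adjusted): PSIP1, the chromatin tether LEDGF, rose from 42.3 and 41.9 to 65.7 and 64.3 CPM, and the H3K79 methyltransferase gene DOT1L fell from 248 and 249 to 191 and 212 CPM. Dropping wild-type library 2 gave 0 and 1 for the stem cell score. Omitting mutant library 1 gave 0 and 0 for the stem cell score. A fit without 1 library ended the call of DNMT3B (without wild-type library 2 or mutant library 1, log2 difference -0.18) and NYNRIN (without wild-type library 2 or mutant library 1, log2 difference -0.68 to -0.46).

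Stress pathways held calls in both directions. Regulators and targets of hypoxia-inducible factors had 4 higher and 8 lower of 25, and 4 and 9 density-adjusted. The oxygen sensors EGLN1 (39.3 and 34.98 against 24.97 and 25.8 CPM), EGLN2 (113 and 106 against 85.03 and 89.2 CPM) and EGLN3 (44.9 and 39.01 against 29.02 and 29.6 CPM) were all lower, EGLN2 without a density-adjusted call, while the collagen hydroxylase gene P4HA1 rose from 50.3 and 49.1 to 68.8 and 72.4 CPM. p53 targets had 7 higher and 6 lower of 33 (3 and 5 density-adjusted) and NRF2 targets 7 and 8 of 29 (2 and 6 density-adjusted). CCNG1 rose from 187 and 158 to 248 and 225 CPM and the leucine sensor gene SESN2 fell from 139 and 144 to 105 and 109.6 CPM. Thioredoxin (TXN) rose from 221 and 232 to 286 and 273 CPM, and the pentose phosphate enzymes TALDO1 (747 and 774 against 648 and 642 CPM) and TKT (724 and 748 against 629 and 667 CPM) fell, TALDO1 without a density-adjusted call. Autophagy genes were even at 8 higher and 8 lower of 42 (6 and 6 density-adjusted), with RB1CC1, which encodes the scaffold FIP200, at 170.3 and 174 CPM against 247 and 215 CPM and the autophagy regulator AMBRA1 at 92.8 and 94.2 against 67.5 and 70.9 CPM. Once wild-type library 2 was omitted, the counts were 2 and 4 for hypoxia genes, 3 and 3 for p53 targets, 4 and 5 for NRF2 targets and 3 and 5 for autophagy genes. Counts without mutant library 1 were 3 and 5 for hypoxia genes and 3 and 4 for p53 targets. With wild-type library 1 left out they were 4 and 4 for p53 targets. The fit without mutant library 2 gave 3 and 5 for p53 targets and 4 and 9 for NRF2 targets. The call was lost with 1 library left out for TKT (without wild-type library 2, log2 difference -0.16).

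In membrane traffic, sorting nexins had 7 higher and 2 lower of 24 (2 and 2 density-adjusted) and SNARE genes 8 and 3 of 33 (4 and 1 density-adjusted). The SNARE gene VAMP4 rose from 10.1 and 10.8 to 16.6 and 18.6 CPM, and SNX14, a sorting nexin tied to lipid droplets, from 175 and 159 to 222 and 187 CPM, the latter without a density-adjusted call. Coiled-coil CCDC genes had 14 higher and 10 lower of 69 (8 and 7 density-adjusted), and kelch-like genes 3 and 3 of 21 (3 and 3 density-adjusted). Among kinase and phosphatase families, MAP kinases and their kinases had 5 higher and 7 lower of 34, or 4 and 2 density-adjusted. PPP2 subunits had 6 and 3 of 13 (2 and 1 density-adjusted) and A-kinase anchoring proteins 3 and 1 of 9 (3 and 1 density-adjusted). Myosins had 0 higher and 3 lower of 11 (0 and 1 density-adjusted), E2F factors 0 and 2 of 10 (0 and 2 density-adjusted) and Hippo genes 4 and 3 of 21 (4 and 1 density-adjusted). E2F1, a driver of entry into S phase, fell from 43.8 and 43.3 to 26.5 and 32.6 CPM. Leaving out wild-type library 2 gave 3 and 1 for SNARE genes, 6 and 6 for CCDC genes, 3 and 2 for MAP kinases, 1 and 2 for PPP2 subunits and 2 and 0 for Hippo genes. When mutant library 1 was left out, the counts were 4 and 1 for SNARE genes, 4 and 5 for CCDC genes, 2 and 4 for MAP kinases, 2 and 1 for PPP2 subunits, 0 and 1 for myosins and 1 and 1 for Hippo genes. Dropping wild-type library 1 gave 4 and 1 for SNARE genes, 7 and 7 for CCDC genes, 3 and 1 for kelch-like genes, 3 and 7 for MAP kinases, 0 and 1 for myosins and 2 and 2 for Hippo genes. Omitting mutant library 2 gave 7 and 1 for SNARE genes. No call was made with 1 library left out for SNX14 (without mutant library 1, log2 difference 0.17).

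At the cell surface, orphan and adhesion receptors had 4 higher and 3 lower of 28 (2 and 3 density-adjusted) and interleukin and interferon receptors 4 and 3 of 27 (2 and 1). TNF receptors had 1 and 4 of 11 (1 and 1 density-adjusted), integrins 2 and 1 of 12 (2 and 1) and cadherins 0 and 2 of 10 (0 and 1). Of the 2 higher in the integrin list, ITGB3BP was taken in by its symbol and is not itself an integrin. Calcium, sodium and TRP channels, which include ORAI1, had 2 higher and 6 lower of 24 (1 and 3 density-adjusted), and matrix genes and proteases 3 and 6 of 41 (2 and 7). IFNAR1, a receptor chain for type I interferons, rose from 79.8 and 75.1 to 101 and 98.4 CPM, and the integrin gene ITGA5 fell from 346 and 343 to 273 and 290.4 CPM. S100 proteins and annexins had 6 higher and 4 lower of 17 (6 and 2 density-adjusted): ANXA1 rose from 339 and 337 to 413 and 414 CPM and S100A4 fell from 14.2 and 13.2 to 4.05 and 8.41 CPM. Inside the cell, nucleic acid sensing genes had 2 higher and 5 lower of 18 (2 and 1 density-adjusted), and the NF-kappaB pathway 4 and 7 of 32 (3 and 5 density-adjusted). The interferon regulator gene IRF3 fell from 81.6 and 87.4 to 63.7 and 78.03 CPM and RELA, the main activating NF-kappaB subunit, from 129 and 141 to 107 and 108 CPM, both without a density-adjusted call. Of the metabolic families, nucleotide sugar and nucleoside carriers had 3 higher and 9 lower of 24 (2 and 6 density-adjusted) and N-glycan assembly 4 and 8 of 30 (1 and 5). P-type ATPases had 6 and 5 of 23 (3 and 3 density-adjusted), peroxisome genes 5 and 4 of 28 (4 and 3), aldo-keto reductases and glutathione transferases 3 and 1 of 16 (2 and 0) and aldehyde dehydrogenases 1 and 1 of 10 (1 and 2). Too few members for a description were tested among phosphodiesterases (0 higher and 1 lower of 7) and SERPIN inhibitors (1 and 0 of 6). Once wild-type library 2 was omitted, the counts were 3 and 1 for interleukin and interferon receptors, 1 and 2 for calcium, sodium and TRP channels, 3 and 2 for S100 proteins and annexins, 1 and 0 for nucleic acid sensing, 3 and 2 for the NF-kappaB pathway, 1 and 4 for nucleotide sugar carriers, 4 and 4 for N-glycan assembly and 3 and 2 for P-type ATPases. Counts without mutant library 1 were 2 and 4 for orphan and adhesion receptors, 2 and 1 for interleukin and interferon receptors, 1 and 1 for TNF receptors, 6 and 0 for S100 proteins and annexins, 1 and 0 for nucleic acid sensing, 4 and 3 for the NF-kappaB pathway, 2 and 3 for nucleotide sugar carriers and 2 and 4 for P-type ATPases. The same fit gave 4 and 1 for peroxisome genes. With wild-type library 1 left out they were 2 and 4 for orphan and adhesion receptors, 1 and 2 for TNF receptors, 2 and 2 for nucleic acid sensing, 3 and 5 for N-glycan assembly, 3 and 3 for P-type ATPases and 3 and 2 for peroxisome genes. The fit without mutant library 2 gave 5 and 6 for matrix genes, 3 and 3 for nucleic acid sensing and 6 and 2 for peroxisome genes. A fit without 1 library ended the call of S100A4 (without mutant library 1, log2 difference -0.70) and IRF3 (without wild-type library 2 or mutant library 1, log2 difference -0.21 to -0.12).

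Genes below the footprint filter, which no footprint comparison could test, had a smaller share of calls, with larger folds. Of 1590, 144 were higher (9.06%), 67 were lower (4.21%) and 1379 were not called, and the median fold of the calls was 1.76 against 1.28 for genes kept in footprints. Their median level was 5.23 CPM against 50.5 CPM, a depth at which small changes were not detectable. Without wild-type library 2 the counts were 68 and 38, and without mutant library 1 they were 77 and 40. Density-adjusted counts were 96 and 54. DESeq2 called 5 higher and 4 lower, where genes to which it gave no adjusted p counted as not called. An assumed variation of 10% left 22 and 7. Zinc finger genes made up 155 of the 1590 and held 44 of the 144 higher calls and 1 of the 67 lower calls, against 100 higher and 66 lower among the other 1435. Their median was 0.35, and that of the other genes -0.02.

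Among the largest rises below the filter was ZNF320, at 7.98 and 8.29 CPM against 18.7 and 16.8 CPM (edgeR adjusted p = 2.7e-06). ZNF84 stood at 7.69 and 5.61 against 14.2 and 13 CPM, ZNF816 at 5.03 and 7.62 against 14.8 and 11.98 CPM, ZNF695 at 3.55 and 5.16 against 11.02 and 8.67 CPM and ZNF181 at 2.37 and 6.05 against 9.22 and 10.2 CPM. In all 5 both mutant libraries lay above both wild-type libraries, which the rule for naming required. Of the 1590 genes below the filter, 784 had groups that did not overlap. TMEM117, a membrane protein gene, showed the largest rise that the rule for naming reached, from 3.84 and 2.02 to 7.87 and 5.87 CPM, and PLCH1, a phospholipase C, rose from 4.43 and 4.26 to 8.55 and 10.4 CPM. GAS2L3, which links actin and microtubules in cytokinesis, rose from 5.32 and 6.28 to 12.4 and 11.98 CPM. OR51B2, an olfactory receptor gene next to the beta-globin genes, rose from 5.03 and 4.04 to 7.65 and 12.2 CPM. CCDC68 rose chiefly in 1 mutant library, at 3.25 and 3.36 CPM against 9.67 and 4.33 CPM. The call was lost with 1 library left out for ZNF181 (without wild-type library 1, log2 difference 0.67), TMEM117 (without wild-type library 2 or mutant library 1, log2 difference 0.85 to 1.06), OR51B2 (without mutant library 2, log2 difference 0.78) and CCDC68 (without mutant library 1, log2 difference 0.38).

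Falls below the filter included HACD1, an enzyme of very long fatty acid synthesis, from 7.98 and 8.29 to 3.60 and 3.57 CPM, and HIC1, a transcriptional repressor often silenced by methylation in tumours, from 7.10 and 6.50 to 2.92 and 3.57 CPM. DEXI fell from 24.2 and 26.9 to 12.8 and 13.3 CPM (edgeR adjusted p = 3.8e-07), FZD8, a further Wnt receptor, from 7.98 and 9.64 to 4.95 and 4.59 CPM and PELI3, a ubiquitin ligase of Toll-like receptor signalling, from 7.39 and 8.74 to 4.27 and 4.59 CPM (no density-adjusted call). Among families with at least 8 members below the filter, the 10 potassium channels, 10 calcium, sodium and TRP channels, 14 matrix genes, 11 Golgi glycosyltransferases and 9 interleukin and interferon receptors held no call. No call was made with 1 library left out for HIC1 (without mutant library 1, log2 difference -0.91), FZD8 (without wild-type library 2, log2 difference -0.73) and PELI3 (without wild-type library 2 or mutant library 1, log2 difference -0.83 to -0.73).

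A second kind of gene lay below the footprint filter in spite of abundant mRNA. There were 16 with a mean of at least 50 CPM, named here after their values were seen, and most belong to families with near-identical copies elsewhere in the genome: ribosomal protein genes (RPL7, RPS28, RPS26, RPL21, RPL39), histone genes (H4C11, H4C12, H3-3A) and HMGB1, HMGN2, HNRNPA3, SNRPG, HSPE1, FKBP1A and HBA1, with ABHD17A. RPS28 had 935 and 982 CPM with wild-type and 697 and 759.6 CPM with mutant DNMT3A, with 4 footprint counts in all 4 footprint libraries together. RPL7 had 878 and 876 CPM against 1024 and 1092 CPM and 1 footprint count. How reads with more than 1 match in the genome were handled is not stated, so the levels of these genes are uncertain.

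**Figure D5:**
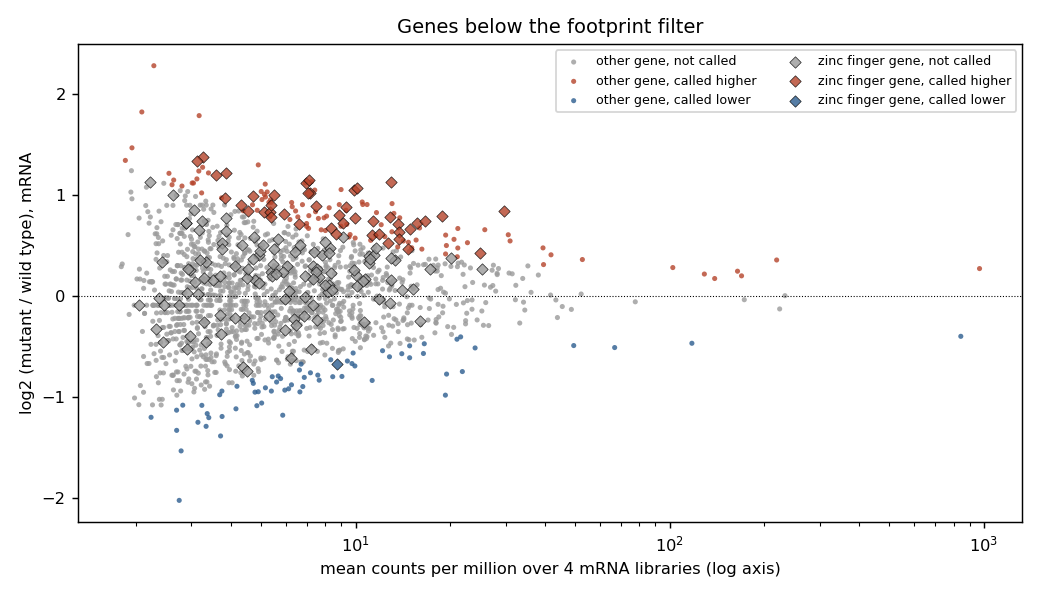
Mean mRNA level (CPM over 4 libraries, log axis) and log2 difference between mutant and wild type for the 1590 genes below the footprint filter, coloured by call, with zinc finger genes as diamonds. The zinc finger genes called higher (44) outnumber the 1 called lower, and calls at low levels need larger differences.

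The largest single rises at 50 CPM or more were modest in size. AKNA, a factor of microtubule organisation at the centrosome, went from 45.8 and 45.7 to 80.98 and 80.1 CPM (edgeR adjusted p = 1.3e-14). The activation antigen gene CD69 went from 90.5 and 90.6 to 155 and 152 CPM and RESF1, a retroelement silencing factor, from 181 and 170.4 to 301 and 284 CPM. CALM2, one of the calmodulin genes, went from 89.6 and 91.5 to 155 and 151 CPM. RPL26 rose from 42.3 and 39.9 to 74.9 and 68.1 CPM, a ribosomal protein gene whose copies may share reads. Of the falls, HBZ, the embryonic alpha-type globin, went from 379 and 399 to 202 and 216 CPM, a difference of -0.90 ± 0.05 (edgeR adjusted p = 2.1e-62), beside the erythroid markers given above. NDRG2 fell from 70.1 and 74.7 to 39.8 and 43.9 CPM, PC, the pyruvate carboxylase gene, from 75.7 and 76.5 to 46.1 and 45.4 CPM, and EHD1, which recycles endosomes, from 97.9 and 107 to 69.3 and 59.9 CPM. Each of these 9 genes was called in the same direction with the density trend removed and, separately, with an assumed variation of 10%. With both applied together, PC (log2 difference -0.58) and EHD1 (-0.48) were not called.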

How the data were processed

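Raw reads per Ensembl gene were counted by the authors and deposited as 1 count table for each library, with whole numbers and no normalisation. Per the submitters' processing notes, cutadapt, Trimmomatic, Bowtie2, STAR and featureCounts were used with the builds hg38 and GRCh38, and the sources used here state neither their roles nor the annotation release, the strand setting or the handling of reads with several matches. Of 20453 gene IDs, 19827 matched a symbol in the gene name table. RNA for the mRNA libraries was reverse transcribed from oligo(dT), per the labels.

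Genes passing edgeR's filterByExpr over the 4 mRNA libraries were tested by its quasi-likelihood test (edgeR 4.0.16, R 4.3.3, TMM factors, mutant against wild type, no covariate), with Benjamini-Hochberg adjusted p-values over all 10756 genes. A gene below the footprint filter failed the same filter over the 4 footprint libraries. The density trend was removed as a loess offset (span 0.3) on the number of protein-coding genes within 500 kb. DESeq2 1.42.0, RLE factors, other filters, an assumed variation of 10% between cultures, a replicate block and leaving out each library were alternatives.

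Named genes were DNMT3A, the 10 largest called rises and falls at a mean of 50 CPM or more, the same below the footprint filter with a mean count of at least 20, and up to 4 called members of each family with the smallest p in each direction. The rule also asked that groups not overlap in the lists of largest changes. The members and lists were chosen with earlier results of these data known. Results for some named genes and 1 family are not reported here. Scripts were tested on simulated data. Counts are of reads, and no use of molecular identifiers is stated. Promoter sequences come from RefSeq (GRCh38.p14).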

Additional observations from a re-analysis of the deposited data

How the results depend on the processing

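Over all genes (2030 higher, 2030 lower), DESeq2 called 675 higher and 792 lower, an assumed variation of 10% left 178 and 135, and requiring a fold of 1.5 left 331 and 194. In every DESeq2 count, genes to which it gave no adjusted p counted as not called. Leaving out each library gave 1125 to 1932 higher and 1168 to 1897 lower. Below the footprint filter (144 and 67), DESeq2 called 5 and 4, an assumed variation of 10% left 22 and 7, no count filter gave 98 and 39, and leaving out each library gave 68 to 120 and 38 to 60. The 391 of these genes with fewer than 10 footprint counts, a smaller set, held 31 and 12. Removing the density trend together with assuming a variation of 10%, an alternative chosen after seeing the data, left 83 and 81 over all genes and 20 and 6 below the filter. RLE factors, the older quasi-likelihood fit and removal of the density trend alone kept these 4 counts within 1.5 times. Apart from the smaller set of genes and the fold requirement, the cause of the other moves was not tested.

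A replicate block, which pairs libraries of the same number, gave 2069 higher and 2099 lower, and 148 and 71 below the footprint filter. Deviations of same-numbered libraries from their group means correlated at 0.056 over genes. Counting error weakens such a correlation, so it cannot exclude a batch shared by same-numbered libraries. The labels give the pairs only a common number, and the block was not used elsewhere.

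The estimated spread of 2.1% rests on 2 libraries a group whose origin from separate cultures is not stated, and most calls were under 1.5-fold. Of the 192 genes named with values, 171 kept their call without wild-type library 2, 166 with the density trend removed and 62 with an assumed variation of 10%, and DESeq2, which gave an adjusted p for 167 of them, called 147. RLE factors and the replicate block kept all 192. POLR2A changed sign with the density trend removed, whether alone (0.0272) or together with the assumed variation of 10% (0.0256).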
